A study of Mus musculus with 6 samples.

Results

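*Atf4*, which encodes a transcription factor of the integrated stress response, and 9 genes known as its targets were followed in the liver of aged mice. The 10 genes were *Atf4*, *Atf5*, *Asns*, *Trib3*, *Chac1*, *Sesn2*, *Psat1*, *Phgdh*, *Ddit4* and *Stc2*, of 54115 genes in the annotation used. They were chosen by name as genes of amino acid supply and stress that ATF4 is known to regulate. No measured value entered the rule, but earlier results of these data were known when the genes were chosen. The study asked how loss of SIRT7, a nuclear deacylase, acts in old mice, and collected the liver of 3 WT and 3 *Sirt7* KO males for RNA-seq. All 6 mice were 24 months old and had fasted for 16 h. The *Sirt7* KO line came from a mixed C57BL/6 and 129Sv background, was backcrossed to C57BL/6J, and heterozygous parents gave WT and KO littermates. The KO was not limited to the liver, and every comparison was between genotypes at a single age, sex and feeding state.

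ATF4 is made when kinases that sense missing amino acids, unfolded protein, lack of heme or double-stranded RNA phosphorylate the translation factor eIF2, which lowers most protein synthesis while ribosomes reach the *Atf4* coding sequence more often. The *Atf4* mRNA is therefore only part of its control, and RNA-seq does not measure the ATF4 protein. With partners such as C/EBP factors, ATF4 binds a composite DNA element and raises genes that make, import and charge amino acids. In the liver, where amino acids feed glucose and urea production, this program is known to respond to low dietary protein, to single missing amino acids and to stress of the endoplasmic reticulum.

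The core of this composite element, written here as TGATGNAA and searched on both strands, was present in the promoter window of 3 of the 10 genes. A window ran from 250 bases before to 50 after a RefSeq gene start (GRCm38.p6), and all 10 genes had at least 1 window (12 in all). The 3 sites are shown because *Asns*, *Chac1* and *Trib3* are textbook targets and hold the element within the window. Each is given 5′ to 3′ on the strand of its gene, with the match in capitals. A match on the other strand reads as the reverse complement.
*Asns*: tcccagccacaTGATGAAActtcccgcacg
*Trib3*: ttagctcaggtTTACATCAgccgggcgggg
*Chac1*: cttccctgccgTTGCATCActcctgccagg
The *Asns* run lies at chr6:7693214-7693243 on the minus strand. Its match was on the strand of the gene, from -23 to -16 relative to the RefSeq start, and fell in an exonic UTR of the longer GENCODE M21 gene model. The *Trib3* run lies at chr2:152344028-152344057 on the minus strand, with the match on the opposite strand from 14 to 21 bases after the RefSeq start and outside the GENCODE gene. The *Chac1* run lies at chr2:119351038-119351067 on the plus strand, with the match on the opposite strand from -193 to -186 and upstream of the GENCODE gene. The same letters were found in 4.51% of all 27025 genes with a window, or 3.97% of all 32851 windows. They were also found in 15 of the 46 genes with a window among the other genes of the pathway listed below. A match describes the letters of a window and not a bound site.

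Between 9994860 and 13424776 reads were assigned to transcripts per liver. *Sirt7* itself had 55.2, 45.5 and 47.3 CPM (counts per 1000000 reads after TMM scaling) in the WT livers and 28.6, 41.8 and 40.8 CPM in the KO livers. Salmon's estimate for its full-length transcript of 10 exons was 381 to 429 reads in the WT livers and 77.5 to 135 reads in the KO livers. Per length the gene went the other way, at 34.4, 28.3 and 27.3 TPM in the WT livers and 34.7, 49.9 and 68.0 TPM in the KO livers, so that the gene level alone does not check the labels and the lower values are those of the CPM and of the full-length transcript. Hepatocyte markers such as *Alb* and *Apoa1* together held 4.95e+04 to 5.37e+04 CPM in WT and 4.86e+04 to 5.76e+04 CPM in KO livers. Of 10 marker lists, the ranges of 9 overlapped between genotypes, and the exocrine pancreas list stood at 9.32 to 13.7 CPM in WT and 24.1 to 47.6 CPM in KO livers, with *Prss2* and *Pnlip* at 0 in every liver. The part of these cells in the results below was not tested. In whole liver, fewer cells of a type and less RNA per cell cannot be told apart. *Sirt7* KO replicate 1 stood apart from the other KO livers, with a chi-square per gene of 60.1 and 48.1 against them, whereas KO replicates 2 and 3 differed by 16.9. WT replicate 1 likewise differed from the other WT livers by 65.2 and 76.5, against 26.3 between WT replicates 2 and 3. The values of these livers are therefore given one by one.

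*Asns* and *Chac1* were higher in every *Sirt7* KO liver than in every WT liver, and *Atf4* itself was nearly level between the genotypes. edgeR's quasi-likelihood test could be run on 6 of the 10 genes. *Psat1*, *Phgdh*, *Ddit4* and *Stc2* fell under its filter on low counts, a cutoff of 0.909 CPM before TMM scaling that at least 3 livers had to reach. After adjustment over all 12524 tested genes, 0 of the 6 passed an adjusted p under 0.05 with a fold change over 1.5, beside 0.00798% of all tested genes (1 gene), so the test had next to no calls anywhere. DESeq2 also called 0 of the members, while it called 256 of the 14348 genes to which it gave an adjusted p. At an unadjusted p under 0.05, 2 of the 6 were higher in KO mice, beside 6.54% of tested genes, and 0 were lower, beside 4.78%. The ranges of 2 of the 6 did not overlap with KO higher, beside 8.74% of tested genes, and 0 did so with KO lower, beside 8.09%. These counts depend in part on the filter. *Chac1* passed it only through the KO livers, with 2 WT and 3 KO livers over the cutoff. *Psat1*, lower in every KO liver, had 2 WT and 0 KO livers over it and was left out. *Ddit4*, higher in every KO liver, had 0 WT and 2 KO livers over it and was also left out. The fitted log2 fold change was above 0 for 4 and below 0 for 2 of the 6, with a median of 0.21 beside -0.0061 for all tested genes.

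**Figure D1:**
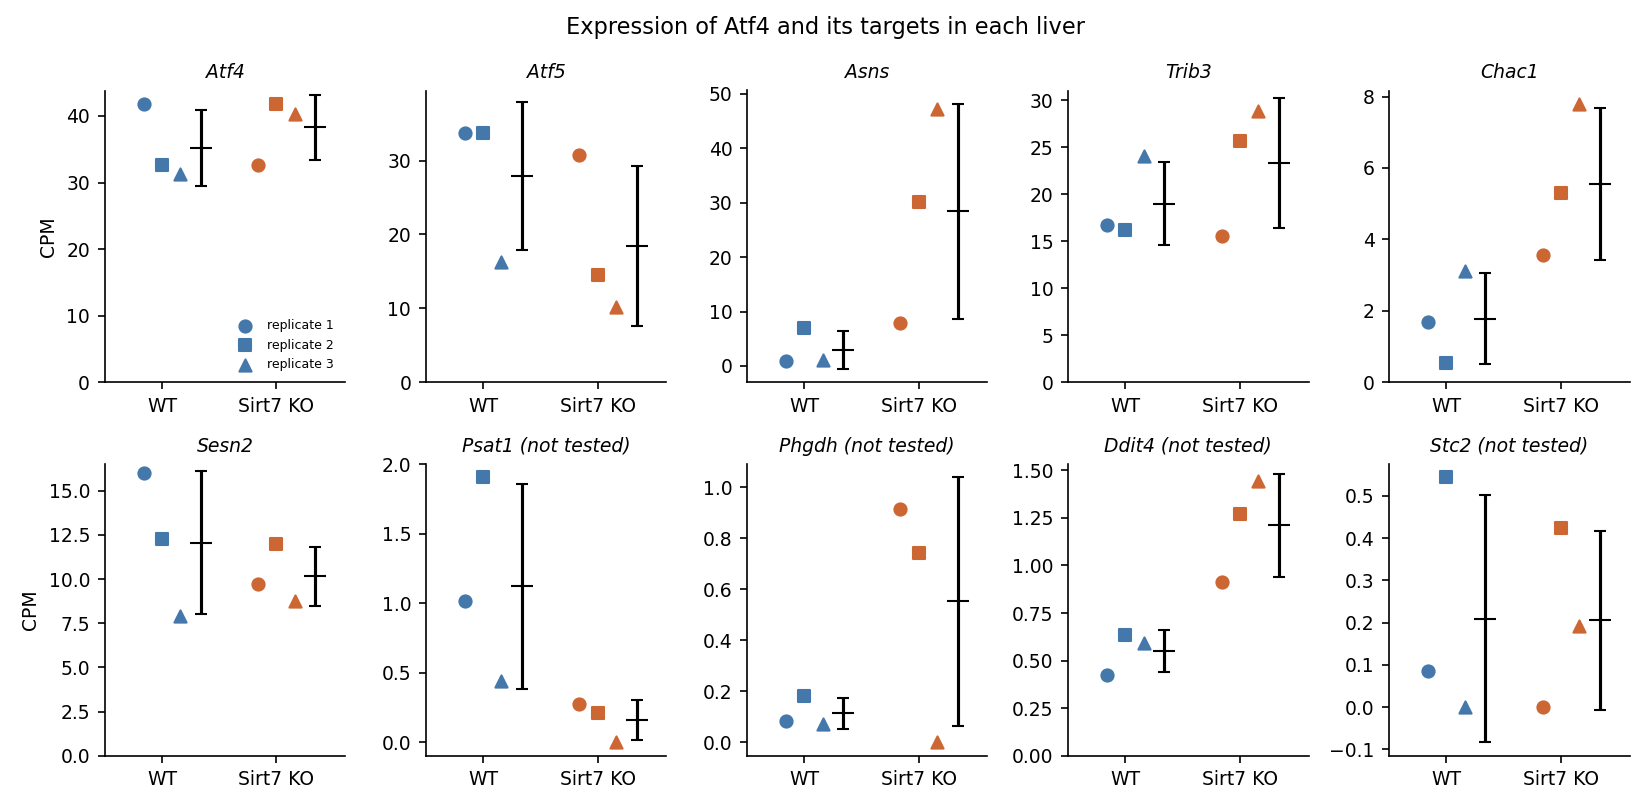
Each panel plots the CPM of 1 gene (vertical axis, scaled to each gene) in the 3 WT livers (blue) and the 3 *Sirt7* KO livers (orange), the symbols mark the replicate number, and the cross with bars gives mean ± SD. All KO points lie above all WT points for *Asns*, *Chac1* and *Ddit4* and below them for *Psat1*, and the genotypes overlap for the other 6 genes.

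Per length of transcript, which allows different genes to be compared, *Atf4* led the order in both genotypes, at 20.2 ± 4.56 TPM in WT mice and 21.1 ± 3.50 TPM in KO mice (SD, n = 3). In WT mice it was followed by *Atf5* (15.6 TPM), *Trib3* (8.98 TPM), *Sesn2* (3.17 TPM), *Asns* (1.37 TPM), *Chac1* (1.09 TPM), *Psat1* (0.435 TPM), *Ddit4* (0.304 TPM), *Phgdh* (0.0871 TPM) and *Stc2* (0.046 TPM). Among neighbours in that order, only *Trib3* with *Sesn2* and *Ddit4* with *Phgdh* had ranges that did not overlap over the 3 livers. In KO mice *Asns* stood after *Atf4*, at 15.3 ± 10.9 TPM, with its range overlapping those of *Atf4* and *Trib3*. *Trib3* (10.8 TPM), *Atf5* (9.58 TPM), *Chac1* (3.28 TPM), *Sesn2* (2.56 TPM), *Ddit4* (0.657 TPM), *Phgdh* (0.354 TPM), *Psat1* (0.0593 TPM) and *Stc2* (0.0458 TPM) followed, and the ranges of *Atf5* with *Chac1* and of *Sesn2* with *Ddit4* did not overlap. *Asns* was thus at the fifth place in WT and the second in KO mice, while the 4 genes under the filter took the last places in both genotypes. The order depends on the transcript lengths: with reads divided by the unweighted mean length of a gene's transcripts, *Asns* in KO mice stood at 26.9 and *Atf4* at 21.6, and *Trib3* in WT mice at 16.8, on the same scale.

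The transcription factors came first. *Atf4* (ENSMUSG00000042406.8, chromosome 15 from 80255184 to 80257541 on the plus strand of GRCm38) had 41.7, 32.7 and 31.3 CPM in the WT livers and 32.7, 41.8 and 40.4 CPM in the KO livers. WT replicate 1 and KO replicates 2 and 3 formed the upper values and the genotypes overlapped. The mean was 35.2 ± 5.68 CPM in WT and 38.3 ± 4.88 CPM in KO mice (SD, n = 3), a log2 fold change of 0.12 with an SE of 0.17 (edgeR, adjusted p = 0.84; exact permutation test p = 0.4, two-sided, where 3 against 3 cannot go below 0.1). A change of the *Atf4* mRNA was thus not detectable with these livers, and under total-count scaling its sign turned, at -0.0022. The protein-coding transcript ENSMUST00000109605.4 (349 codons) took 99.2% ± 0.833 of its reads in WT and 97.9% ± 2.29 in KO mice (SD, n = 3). The remainder was assigned to a transcript with a retained intron.

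*Atf5* encodes a factor closely related to ATF4 that also responds to mitochondrial stress. It lies on chromosome 7 from 44812256 to 44816658 on the minus strand (ENSMUSG00000038539.15) and had 33.7, 33.8 and 16.3 CPM in the WT livers and 30.8, 14.5 and 10.2 CPM in the KO livers. KO replicates 2 and 3 were below every WT liver, whereas KO replicate 1 lay within the WT range. The fold change was -0.59 on the log2 scale with an SE of 0.41 (edgeR, adjusted p = 0.64; exact permutation test p = 0.2, two-sided). Without KO replicate 1 it was -1.17 (edgeR, unadjusted p = 0.0079, adjusted p = 0.13), and without KO replicate 3 it was -0.30.

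The transcripts of *Atf5* divided its reads differently among the livers. The 2 transcripts with reads, ENSMUST00000047356.10 of 1816 bases and ENSMUST00000107893.8 of 1735 bases, both hold a coding sequence of 283 codons. The longer one was assigned 46.9%, 21.7% and 21.6% of the *Atf5* reads in the WT livers and 100%, 46.7% and 38.1% in the KO livers. KO replicate 1 stood out, since all of its 336 reads went to the longer transcript and none to the shorter. The share was 30.0% ± 14.6 in WT and 61.6% ± 33.5 in KO mice (SD, n = 3), and the genotypes overlapped. These shares are estimates from short reads that mostly fit both transcripts, and no test was run on them.

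**Figure D2:**
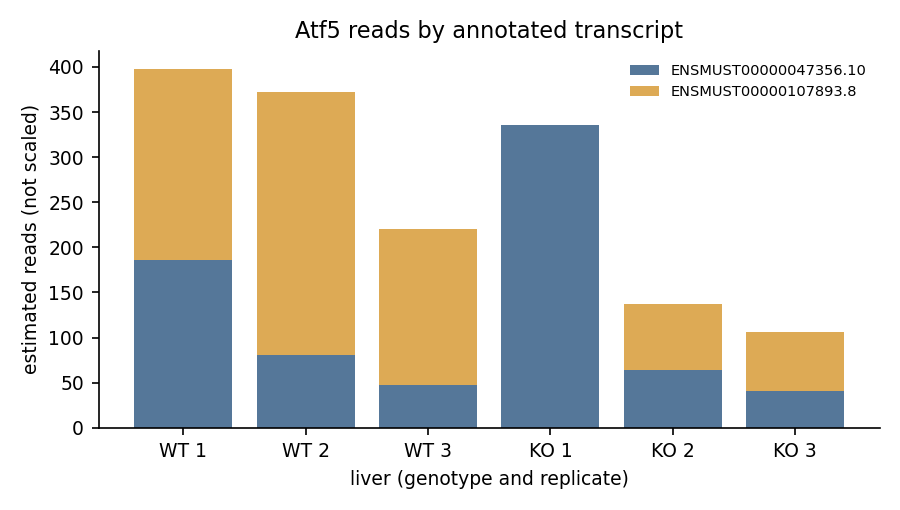
Stacked bars give the estimated reads of *Atf5*, not scaled to depth (vertical axis), in each of the 6 livers (horizontal axis), split into the longer transcript (blue) and the shorter transcript (yellow). KO replicate 1 holds 336 reads on the longer transcript and 0 on the shorter, and the other 5 livers hold both.

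*Asns*, the enzyme that makes asparagine from aspartate and glutamine, had the largest difference of the members. It lies on chromosome 6 from 7675169 to 7693254 on the minus strand (ENSMUSG00000029752.12). The WT livers had 0.847, 6.99 and 1.04 CPM from 10, 77 and 14 reads, and the KO livers had 7.88, 30.1 and 47.3 CPM from 86, 284 and 491 reads. Every KO liver lay above every WT liver, but by a small step between KO replicate 1 and WT replicate 2. The mean was 2.96 ± 3.49 CPM in WT and 28.4 ± 19.8 CPM in KO mice (SD, n = 3). The log2 fold change was 3.29 with an SE of 0.83, which is 9.79-fold with a range of 5.49 to 17.4 at 1 SE (edgeR, unadjusted p = 0.0034, adjusted p = 0.20; exact permutation test p = 0.1, two-sided, the smallest possible). The difference did not pass the adjusted test, and the SD within each genotype was of the order of its mean. Without KO replicate 1 the log2 fold change was 3.75 and the adjusted p in edgeR was 0.041, a call. Without WT replicate 2, the WT liver with the most *Asns* reads, it was 4.90 (edgeR, adjusted p = 0.22), and without KO replicate 3 it was 2.70 (edgeR, adjusted p = 0.49). One transcript of 12 exons and 561 codons took 100% of the reads in WT mice and 97.4% ± 2.68 in KO mice (SD, n = 3), and none of its words of 31 bases occurred in another gene.

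*Chac1*, a glutathione-degrading cyclotransferase, lies on chromosome 2 from 119351229 to 119354381 on the plus strand (ENSMUSG00000027313.3). It had 1.69, 0.544 and 3.11 CPM in the WT livers and 3.57, 5.30 and 7.80 CPM in the KO livers, from 6 to 42 and 39 to 81 reads. All KO livers lay above all WT livers, with KO replicate 1 close to WT replicate 3. The mean was 1.78 ± 1.28 CPM in WT and 5.56 ± 2.13 CPM in KO mice (SD, n = 3). The log2 fold change was 1.62 with an SE of 0.56, or 3.06-fold with a range of 2.08 to 4.51 at 1 SE (edgeR, unadjusted p = 0.018, adjusted p = 0.33; exact permutation test p = 0.1, two-sided, the smallest possible). Without WT replicate 3, the highest WT liver, it was 2.30 (edgeR, adjusted p = 0.34). It was 1.202 without WT replicate 2, the lowest WT liver (edgeR, adjusted p = 0.53), and 1.29 without KO replicate 3 (edgeR, adjusted p = 0.66).

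*Trib3* encodes a pseudokinase that feeds back on ATF4 and on insulin signaling through AKT. It lies on chromosome 2 from 152337422 to 152344032 on the minus strand (ENSMUSG00000032715.9) and had 16.8, 16.1 and 24.1 CPM in the WT livers and 15.6, 25.6 and 28.8 CPM in the KO livers. KO replicates 2 and 3 were above, and KO replicate 1 below, all WT livers. The log2 fold change of 0.29 had an SE of 0.26 (edgeR, adjusted p = 0.72; exact permutation test p = 0.5, two-sided). Without KO replicate 1 it was 0.52 (edgeR, unadjusted p = 0.037, adjusted p = 0.26), and without KO replicate 3 it was 0.11 (edgeR, adjusted p = 0.95).

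*Sesn2*, a leucine-binding inhibitor of mTORC1 signaling, lies on chromosome 4 from 132492032 to 132510501 on the minus strand (ENSMUSG00000028893.8). It had 16.0, 12.2 and 7.91 CPM in the WT livers and 9.71, 12.0 and 8.77 CPM in the KO livers, so that every KO value fell within the WT range. The log2 fold change was -0.25 with an SE of 0.28 (edgeR, adjusted p = 0.79; exact permutation test p = 0.6, two-sided). It was 0.0064 without WT replicate 1, the highest liver.

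**Figure D3:**
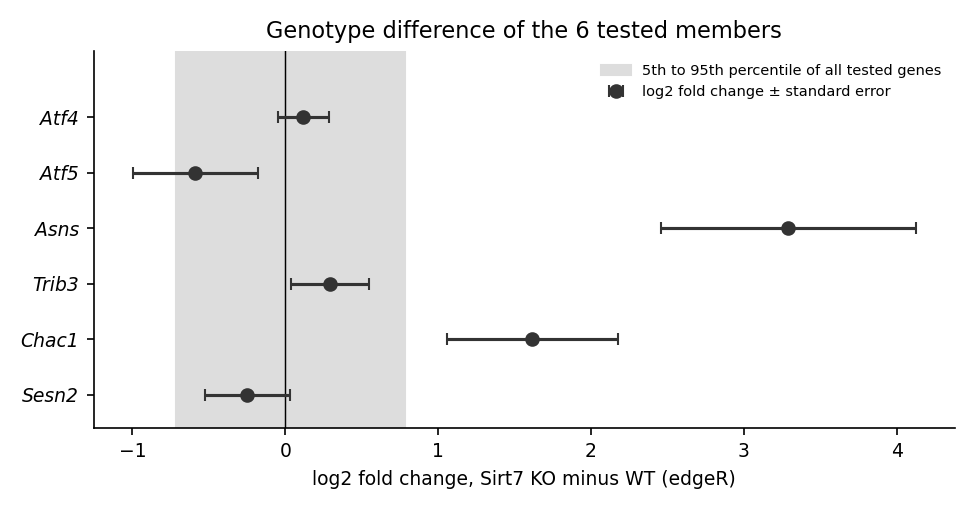
Points give the log2 fold change of *Sirt7* KO over WT livers (horizontal axis, edgeR) with bars of 1 SE for the 6 tested genes, and the grey band spans the 5th to the 95th percentile of all 12524 tested genes, from -0.72 to 0.78. *Asns* at 3.29 and *Chac1* at 1.62 lie beyond the band, and the other 4 genes lie inside it.

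The first enzymes of serine synthesis, which in many cells are standard targets of ATF4, were close to absent. *Psat1*, the phosphoserine aminotransferase (ENSMUSG00000024640.9, chromosome 19 from 15904678 to 15947337, minus strand), had 12, 21 and 6 reads in the WT livers and 3, 2 and 0 reads in the KO livers. All KO livers lay below all WT livers, opposite to *Asns* and *Chac1*. In CPM the values were 1.02, 1.91 and 0.444 in WT and 0.275, 0.212 and 0 in KO mice (exact permutation test p = 0.1, two-sided, the smallest possible), and the 0 in KO replicate 3 allows up to 0.289 CPM at 3 reads. DESeq2 without length offsets, which kept the gene, gave a log2 fold change of -2.78 with an SE of 1.18 (unadjusted p = 0.018, adjusted p = 0.33). With length offsets DESeq2 gave -2.79 with an SE of 1.23 and no adjusted p.

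*Phgdh*, the dehydrogenase that opens the pathway (ENSMUSG00000053398.11, chromosome 3 from 98313170 to 98339990, minus strand), had 1, 2 and 1 reads in the WT livers and 10, 7 and 0 reads in the KO livers. The KO livers thus held both the highest and the lowest value (exact permutation test p = 0.4, two-sided). Its reads are uncertain, since 56.3% of its words of 31 bases also occur in 26 other genes.

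*Ddit4*, an inhibitor of mTORC1 also called REDD1, lies on chromosome 10 from 59949669 to 59951834 on the minus strand (ENSMUSG00000020108.4). It had 0.423, 0.635 and 0.592 CPM in the WT livers, from 5, 7 and 8 reads, and 0.916, 1.27 and 1.45 CPM in the KO livers, from 10, 12 and 15 reads. All KO livers were higher than all WT livers (exact permutation test p = 0.1, two-sided, the smallest possible), although each step was a few reads. DESeq2 gave a log2 fold change of 1.14 with an SE of 0.81 (unadjusted p = 0.16). *Stc2*, which encodes the secreted glycoprotein stanniocalcin 2 (ENSMUSG00000020303.2, chromosome 11 from 31357307 to 31370074, minus strand), had 1, 6 and 0 reads in the WT livers and 0, 4 and 2 reads in the KO livers, too few to compare (exact permutation test p = 1, two-sided). Its 0 allows up to 0.222 CPM in WT replicate 3 and up to 0.275 CPM in KO replicate 1.

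The livers of the KO group were not alike in these genes. *Asns*, *Chac1* and *Ddit4* shared 1 order of livers at the top, with KO replicate 3 highest, then KO replicate 2, then KO replicate 1. The summed exocrine pancreas markers had the same order at the top, with 47.6 CPM in KO replicate 3, 37.5 in KO replicate 2 and 24.1 in KO replicate 1. Of the 4 markers in this sum, *Prss2* and *Pnlip* were at 0 in every liver, and only 1 passed the filter on low counts. The part of these markers in the values of *Asns*, *Chac1* and *Ddit4* was not tested. KO replicate 3 was the highest of all 6 livers in 3 of the 6 tested genes. Set against the WT range, KO replicate 1 was above it in 2, within it in 3 and below it in 1 of the 6 tested genes. The corresponding numbers were 4, 1 and 1 for KO replicate 2 and 3, 2 and 1 for KO replicate 3.

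**Figure D4:**
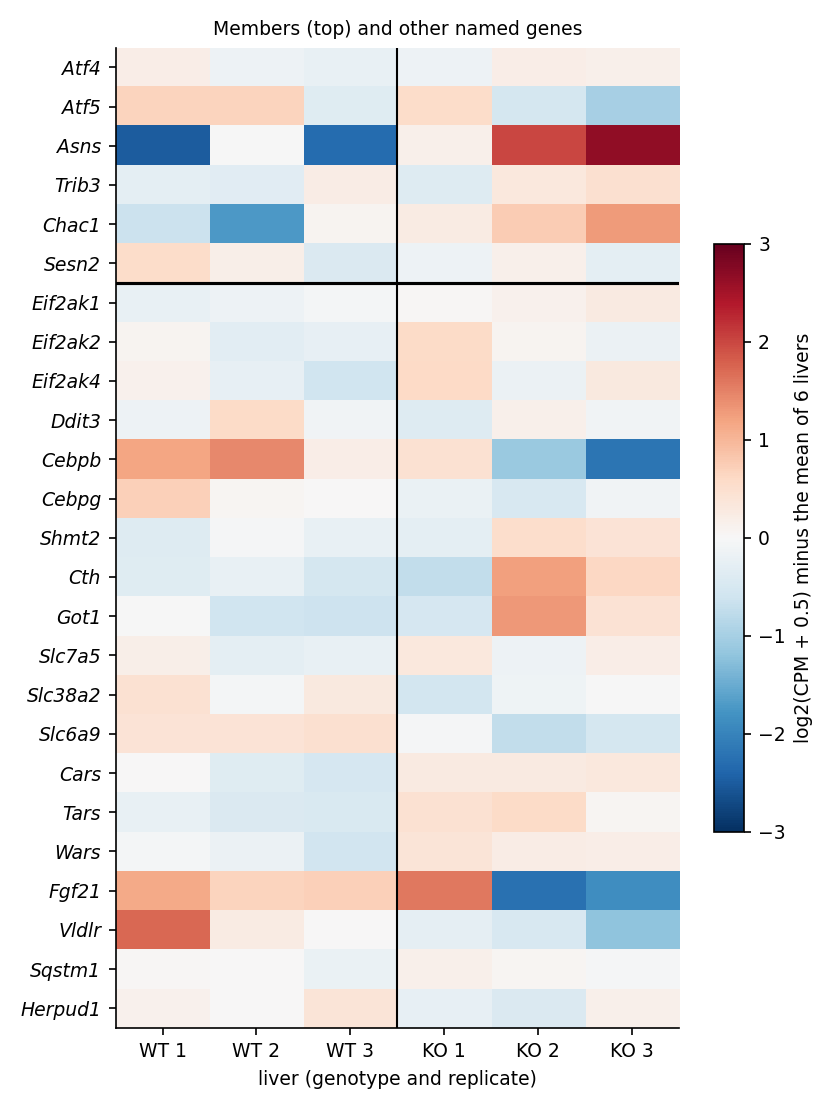
Colors give log2(CPM + 0.5) minus the mean of the 6 livers (red above, blue below) for the 6 tested members, above the black line, and for 19 further genes of the pathway, with a column for each liver and WT to the left. *Asns* and *Chac1* are blue or near white in WT livers and red or near white in KO livers, *Atf4* is near white in every liver, and *Cebpb* and *Fgf21* are blue in KO replicates 2 and 3 but not in KO replicate 1.

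The profile of *Atf4* over the 6 livers was compared with 54 other genes of the pathway by the root mean square difference of mean-centred log2(CPM + 0.5). The most alike were *Mars*, a methionyl-tRNA synthetase, at 0.0776, *Ppp1r15a*, a stress-induced regulator of the eIF2 phosphatase, at 0.111, and *Sars*, a seryl-tRNA synthetase, at 0.114. The values of *Atf4* itself varied by 0.179 around their mean on this scale, so a likeness to *Atf4* here is mostly a likeness to a nearly level gene.

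Another 57 genes of the integrated stress response, set out by role in 6 lists, place the 10 genes among their pathway. Of the 57, 49 were tested and 0 were called by edgeR. DESeq2 called 2 of them, *Tars* and *Slc6a9*, beside 256 of the 14348 genes to which it gave an adjusted p. With length offsets it called *Tars* and *Cars*, beside 245 of 12727 genes. At an unadjusted p under 0.05, 5 of the 49 were higher and 5 lower in KO mice, beside 6.54% and 4.78% of all tested genes, and their median log2 fold change was 0.10. Ranges did not overlap for 5 with KO higher and 3 with KO lower, beside 8.74% and 8.09% of all tested genes, so the counts of ranges without overlap were near the background. The medians of the 6 lists lay on both sides of 0, and the difference between lists was not tested.

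Upstream of *Atf4*, the list of eIF2 kinases and phosphatase subunits, which also holds *Gcn1* and *Eif2s1*, had 8 of 8 genes tested. None had an unadjusted p under 0.05, beside 6.54% of tested genes higher and 4.78% lower, and the median was 0.22. The heme-regulated kinase *Eif2ak1* was higher in every KO liver, at 42.3, 44.3 and 47.0 CPM in WT and 50.1, 54.3 and 59.3 CPM in KO mice, with a log2 fold change of 0.29 (edgeR, unadjusted p = 0.059, adjusted p = 0.46). *Eif2ak4*, the amino acid sensor GCN2, had a log2 fold change of 0.56 with an SE of 0.36, and *Eif2ak2*, the kinase for double-stranded RNA, had 0.38 with an SE of 0.30. Both overlapped between genotypes.

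Among the transcription factors of the pathway, which include partners of ATF4, 5 of 7 genes were tested. At an unadjusted p under 0.05, 2 of the 5 were lower, beside 4.78% of tested genes, and 0 were higher, beside 6.54%. The median of the list was -0.26. *Cebpg*, which forms heterodimers with ATF4 on the element printed above, had 55.2, 34.8 and 33.8 CPM in the WT livers and 29.0, 23.6 and 30.9 CPM in the KO livers. Every KO liver was lower, with a log2 fold change of -0.57 (edgeR, unadjusted p = 0.028, adjusted p = 0.36). *Cebpb* had 56.9, 68.1 and 28.1 CPM in WT and 34.1, 11.1 and 5.01 CPM in KO livers, a log2 fold change of -1.60 with an SE of 0.59 (edgeR, unadjusted p = 0.025, adjusted p = 0.36). Its KO replicate 1 overlapped the WT range, and without that liver the value was -2.66 (edgeR, adjusted p = 0.030), while it was -1.17 without KO replicate 3 (edgeR, adjusted p = 0.61). *Ddit3*, the factor CHOP, was at -0.26 with an SE of 0.29 (edgeR, adjusted p = 0.79).

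In the synthesis of amino acids and one-carbon units, the role of *Asns*, *Psat1* and *Phgdh*, 9 of 12 further genes were tested and the median was 0.35. At an unadjusted p under 0.05, 2 of the 9 were higher, beside 6.54% of tested genes, and 0 were lower, beside 4.78%. *Cth*, the cystathionine gamma-lyase that makes cysteine, had 367, 406 and 327 CPM in the WT livers and 285, 1109 and 734 CPM in the KO livers. *Got1*, the cytosolic aspartate aminotransferase, had 149, 99.3 and 96.7 CPM in WT and 105, 367 and 201 CPM in KO livers. In both genes KO replicates 2 and 3 were above all WT livers and KO replicate 1 was not. Their log2 fold changes were 0.95 for *Cth* and 0.96 for *Got1* (edgeR, adjusted p = 0.41 and 0.39), and without KO replicate 1 *Cth* stood at 1.33 (edgeR, adjusted p = 0.022) and *Got1* at 1.31 (edgeR, adjusted p = 0.060). Without KO replicate 2, the highest liver for both, *Cth* stood at 0.48 and *Got1* at 0.41 (edgeR, adjusted p = 0.83 for each). *Shmt2*, the mitochondrial serine hydroxymethyltransferase, had 0.47 with an SE of 0.22.

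The tRNA-charging list had 12 of its 13 tested genes above 0 on the log2 scale, beside 6179 of the 12524 tested genes, and a median of 0.23. Among the 12, *Mars* at 0.060, *Sars* at 0.066 and *Lars* at 0.074 lay within 1 SE of 0, with SEs of 0.15, 0.19 and 0.20. The count was not repeated under total-count scaling, which moved the median of all genes to -0.11. At an unadjusted p under 0.05, 3 of the 13 were higher, beside 6.54% of tested genes. *Tars*, the threonyl-tRNA synthetase, had 78.0, 67.3 and 66.0 CPM in the WT livers and 123.6, 135.7 and 93.8 CPM in the KO livers. Every KO liver was higher, with a log2 fold change of 0.74 and an SE of 0.17 (edgeR, unadjusted p = 0.0019, adjusted p = 0.17), and DESeq2 called it with an adjusted p of 0.011. *Cars* and *Wars*, for cysteine and tryptophan, had log2 fold changes of 0.56 and 0.55, with adjusted p-values of 0.24 and 0.34 in edgeR, and did not overlap between genotypes either. With length offsets DESeq2 gave *Cars* a log2 fold change of 0.90 (adjusted p = 0.022).

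Of 9 amino acid transporter genes, 6 were tested and the median was -0.05. At an unadjusted p under 0.05, 2 of the 6 were lower, beside 4.78% of tested genes, and 0 were higher, beside 6.54%. *Slc6a9*, the glycine transporter GLYT1, had 35.7, 35.8 and 37.5 CPM in the WT livers and 26.1, 16.0 and 18.5 CPM in the KO livers, without overlap. Its log2 fold change was -0.85 with an SE of 0.19 (edgeR, unadjusted p = 0.0017, adjusted p = 0.17), and DESeq2 called it with an adjusted p of 0.023. With length offsets the value was -0.56 and DESeq2 gave an adjusted p of 0.50, no call. *Slc38a2*, the transporter SNAT2 for small neutral amino acids, was at -0.47 with an SE of 0.20, and *Slc7a5*, which carries large neutral amino acids, at 0.31 with an SE of 0.44.

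Of the secreted and stress genes, 8 of 8 were tested and the median was -0.07. At an unadjusted p under 0.05, 0 were higher, beside 6.54% of tested genes, and 1 was lower, beside 4.78%. That gene was *Vldlr*, a lipoprotein receptor, with 6.18, 1.91 and 1.55 CPM in WT and 1.19, 0.954 and 0.385 CPM in KO livers and a log2 fold change of -1.91 (edgeR, unadjusted p = 0.019, adjusted p = 0.33). Without WT replicate 1, its highest liver, the value was -1.03 (edgeR, adjusted p = 0.72), and with length offsets it was -2.60 (edgeR, adjusted p = 0.36). *Fgf21*, the fasting hormone, had 69, 45 and 57 reads in the WT livers and 88, 1 and 3 reads in the KO livers. KO replicate 1 was the highest of all livers and KO replicates 2 and 3 were the lowest, which left a log2 fold change of -0.72 with an SE of 1.02 (edgeR, adjusted p = 0.84). Without KO replicate 1 it was -4.48 (edgeR, adjusted p = 0.020), and without KO replicate 2 it was -0.17 (edgeR, adjusted p = 0.99). *Herpud1*, a gene of endoplasmic reticulum degradation, was at -0.33 with an SE of 0.19, and *Sqstm1*, an autophagy receptor, at 0.10 with an SE of 0.14 that turned to -0.0057 under total-count scaling.

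**Figure D5:**
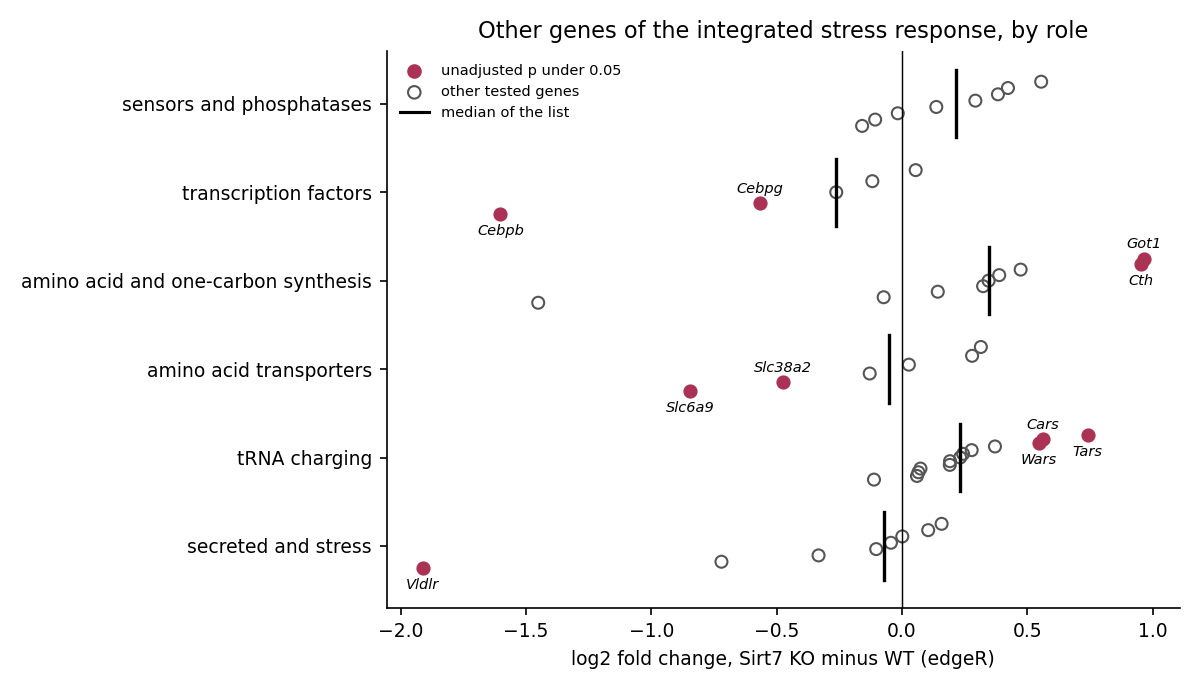
Each circle is the log2 fold change of *Sirt7* KO over WT livers (horizontal axis, edgeR) of 1 of the 49 tested genes of the pathway, in rows by role, with filled circles for an unadjusted p under 0.05 and a black bar for the median of the list. The medians run from -0.26 for the transcription factors to 0.35 for amino acid and one-carbon synthesis, and 12 of the 13 tRNA-charging genes lie to the right of 0.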

How the data were processed

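The estimated counts and the TPM of liver RNA from 3 WT and 3 *Sirt7* KO mice were deposited by the authors per transcript and per mouse. The labels and methods state cDNA synthesis from little RNA (SMART-seq HT), Nextera XT libraries, single-end reads, trimming with Trim Galore 0.6.5 and quantification on the GRCm38 transcriptome with Salmon 1.2.1. The annotation release is not given in the sources used here. The estimated counts are not normalized by the authors and need not be whole. The TPM of the authors are scaled to transcript length and to a fixed total. They served here to compare levels between genes, to give the per-length level of *Sirt7* in both genotypes and to make length offsets.

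Counts were summed per gene of GENCODE M21 and rounded. Of 140992 transcripts, 139172 matched with the same version, 619 with another version, and 1201 without a gene (0.303% to 0.492% of reads) were left out. Genotypes were compared with edgeR 4.0.16 in R 4.3.3 (quasi-likelihood test, TMM, filterByExpr with a minimum count of 10), with Benjamini-Hochberg adjustment over 12524 genes. A call needed an adjusted p under 0.05 and a fold change over 1.5. Single genes were also compared by exact permutation of log2(CPM + 0.5). DESeq2 1.42.0, the tool of the study, was an alternative, with and without transcript length offsets, together with other scalings, filters, a replicate block and the omission of each mouse. All livers differed by more than sampling noise, so each counted as 1 mouse. Apart from the fit with no filter on low counts, the p-values measure the spread between these mice.

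The members and lists were chosen with earlier results of these data known. Named were all members, the 3 tested genes of each list with the smallest p, *Ddit3*, *Fgf21*, *Sirt7* and the 3 genes most like *Atf4*. With 9994860 to 13424776 reads per mouse, genes under the filter rest on a few reads each, and limits at 0 reads cover counting error only. Shared words of 31 bases and promoter matches were found with Python 3.11.15. No protein sequences were used here.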

Additional observations from a re-analysis of the deposited data

How the results depend on the processing

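Among the members, calls rose from 0 to 2 (*Asns* and *Chac1*) with no filter on low counts, where edgeR called 633 of 27881 genes, and to 2 with an unadjusted p and the same fold change, which called 925 genes. With no filter the log2 fold change of *Asns* hardly moved, at 3.30, but its SE fell from 0.83 to 0.26. For *Cebpb* the SE fell from 0.59 to 0.20. That fit thus understates the spread between mice for such genes, and its calls cannot be read like those of the main fit. The omission of 1 mouse gave 0 to 1, the 1 being *Asns* without KO replicate 1. Members higher at an unadjusted p numbered 1 with a mean count of at least 50, for which *Chac1* is too low, and 1 to 3 over the omissions (3 without KO replicate 1, 1 without KO replicate 3). Members lower numbered 2 with no filter, 1 in DESeq2 without and 1 with length offsets, 1 under the replicate block, and 0 to 2 over the omissions (2 without KO replicate 1, 1 without WT replicate 3 or KO replicate 2). The median of the members ran from 0.096 to 0.37 over the omissions. Calls over all genes were 2 under total-count scaling, 2 with length offsets in edgeR, 256 and 245 in DESeq2 without and with offsets, 41 under the replicate block, and 0 to 252 over the omissions, with 252 without KO replicate 1 and 0 to 2 without any other mouse. A filter of at least 10 reads, chosen after seeing the data, gave 2. Genes of the 6 lists higher at an unadjusted p numbered 2 under total-count scaling and 2 to 9 over the omissions (9 without KO replicate 1, 2 without WT replicate 3), and those lower 2 in DESeq2 with offsets and 1 to 5 over the omissions (1 without WT replicate 1). Over all tested genes, 819 of 12524 were higher and 599 lower at an unadjusted p in the main fit. These counts were 1159 and 1049 of 12921 without KO replicate 1, and 520 and 993 of 12524 under total-count scaling. Without KO replicate 3 they were 624 and 450 of 13109, and without WT replicate 3, 781 and 495 of 12994. Without WT replicate 1 they were 703 and 488 of 12944. The cause of these shifts was not tested.

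The sign turned for *Atf4* (-0.0022) and *Sqstm1* (-0.0057) under total-count scaling, which moved the median of all genes to -0.11, for *Sesn2* without WT replicate 1 (0.0064, with a range of -0.47 to 0.0064 over the omissions) and for *Ddit3* without WT replicate 2 (0.032, with a range of -0.41 to 0.032). *Asns* kept its direction throughout, from 2.70 to 4.90 over the omissions, as did *Chac1*, *Atf5* and *Trib3*. For *Asns* and *Chac1* every KO liver lay above every WT liver, so the omission of 1 mouse could hardly turn the sign. Of 370 values of single genes under the alternatives, 349 kept direction and side of the threshold. Another 17 passed to an adjusted p under 0.05, and 4 turned sign. None of these genes had an adjusted p under 0.05 in the main fit, so the side could change only that way. The values repeat the same genes and mice, so their number does not measure agreement between independent tests. Mice of the same replicate number had correlations of deviations of 0.0648, 0.073 and -0.047, beside -0.098 to 0.048 for the other pairs. With 3 mice per genotype these values cannot decide whether the replicate numbers pair the mice. With the replicate block *Asns* stood at 3.47 (edgeR, adjusted p = 0.094) and *Chac1* at 1.76 (edgeR, adjusted p = 0.25).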
